A study of Mus musculus with 6 samples.

Results

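The Iroquois homeobox genes of the mouse, Irx1 to Irx6, were examined in RNA-seq data of mouse embryonic fibroblasts (MEFs). The 6 genes were chosen by name among the 25043 genes of the deposited expression table. Where a gene had several transcripts in the table, the one with the highest mean stood for it, and all 6 genes were listed.

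The study compared primary MEFs from WT embryos with MEFs from Anp32e null embryos, in 3 RNA-seq libraries of each genotype. Anp32e encodes a chaperone of a histone H2A variant. All cells were grown in serum-containing medium and used at a passage number below 8, and total RNA was sequenced. The labels do not say whether the libraries of a genotype came from separate embryos, cultures or plates.

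Iroquois proteins are transcription factors of the TALE class, which have an extended loop in the homeodomain, and they were named after the Iroquois complex of Drosophila. Mammals have the genes in a pair of conserved clusters, one with Irx1, Irx2 and Irx4 and the other with Irx3, Irx5 and Irx6. They pattern tissues of the embryo that include the neural tube, heart, limb and lung, and many of their target sites hold the letters ACANNTGT. Fibroblasts taken from embryos often keep expressing such position-dependent regulators in culture.

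The value examined for each gene was the authors' mean over all 6 libraries, in read counts divided by the size factor of each library. This is 1 value per gene over both genotypes, with no spread between replicates. WT and Anp32e null MEFs were therefore not compared, and none of the values below is a change between genotypes. Levels of different genes are compared per kb of exons, because a longer transcript gives more reads. The fibroblast identity of the cells was checked first. Fibroblast marker genes had a median mean of 3692 per kb over 10 genes, led by S100a4 (174859.7 per kb), the cytoskeletal gene Vim (150796) and the matrix gene Fn1 (10396). Of the same list, Pdgfra (91.9 per kb), Dcn (81.8) and Lum (0.544) were below the median of 129 per kb over all genes with reads. The median was 8.06 per kb for 6 epithelial, 31.6 for 6 neural, 4.35 for 4 endothelial, 5.48 for 4 blood and 0.197 for 4 skeletal muscle markers. The highest in each of these lists were Krt18, Cdh1 and Krt8 (769, 15.1 and 13.6 per kb), Tubb3, Map2 and Sox2 (395, 265 and 55.2), Kdr, Tek and Pecam1 (499, 7.40 and 1.30), Cd68, Csf1r and Ptprc (209, 10.4 and 0.609), and Acta1 and Myog (3258 and 0.394). Myod1 and Myf5, which define skeletal muscle precursors, were listed at 0. Anp32e itself had a mean of 2189.9, or 669 per kb, over the WT and null libraries together, which does not check the genotype labels.

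The 6 Iroquois genes were expressed at very different levels in the same MEFs. Irx1 and Irx2 were the highest, Irx5 was intermediate, Irx3 was low, Irx6 had 1 read in all libraries together and Irx4 had none. Of the 6 genes, 4 had a mean of at least 10, as did 56.9% of all genes in the table, so this count does not set the family apart. Over all genes, 19275 had reads and 5768 were listed at 0, and the median over the genes with reads was 350.2, or 129 per kb over the 17737 of them with a known length.

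Irx1, which acts in limb digits, lung and heart, had the highest mean of the family at 1836, or 774 per kb over 2373 exon bases. The size factors place the reads behind this mean between 10011 and 12454 in the 6 libraries, which gives a 95% counting interval of 1799.8 to 1872 for the mean. Its mean lay at percentile 72.8 of the genes with reads, and its level per kb at percentile 76.4. Irx2, its neighbour on the chromosome with a related embryonic pattern, had a mean of 1722 with a counting interval of 1687 to 1757. Per kb of its 2625 exon bases, Irx2 reached 656, at percentile 73.9. The level of Irx1 per kb was 1.18 times that of Irx2. How far either gene varied between libraries is not known from the pooled mean, so whether Irx1 and Irx2 differed beyond that variation was not tested. All counting intervals given here, those of Irx3 by library included, cover counting error only. Those of the pooled means were computed from the fewest reads that the size factors allow.

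Irx5, which acts with Irx3 in the early limb bud and in the heart, where it shapes repolarization across the ventricular wall, had a mean of 511 with a counting interval of 493 to 531. This was 209 per kb of its 2450 exon bases, at percentile 56.2 and above the median of all genes with reads. Irx1 was 3.71 times and Irx2 was 3.14 times as high as Irx5 per kb. Irx3, known for its part in the limb bud, the neural tube and the cardiac conduction system, had a mean of 96.7 on 603 reads. Its counting interval of 88.7 to 105 was computed from 528 reads, the fewest that the size factors allow. Over 2748 exon bases the mean was 35.2 per kb, at percentile 38.4. On these pooled means, Irx5 stood 5.93 times above Irx3 per kb, and Irx1 stood 22.0 times above it. On the split of its reads set out below, the pooled mean of Irx3 is close to the value of no single library. Its level was 53.3 to 63.0 per kb in 3 libraries and 10.1 to 12.8 in the other 3. Both listed transcripts of Irx3 had the same mean.

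Irx6, known from the retina, had a mean of 0.169 for both of its transcripts, which is 1 read in 1 of the 6 libraries. That is 0.0501 per kb, at percentile 0.851 of the genes with reads. Irx4, a marker of ventricular heart muscle, was listed at 0. A count of 0 allows up to 3 reads in all, which here is a mean of up to 0.550, so expression of Irx4 below that level was not detectable at this depth. The same limit means that Irx4 and Irx6 cannot be ordered.

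**Figure D1:**
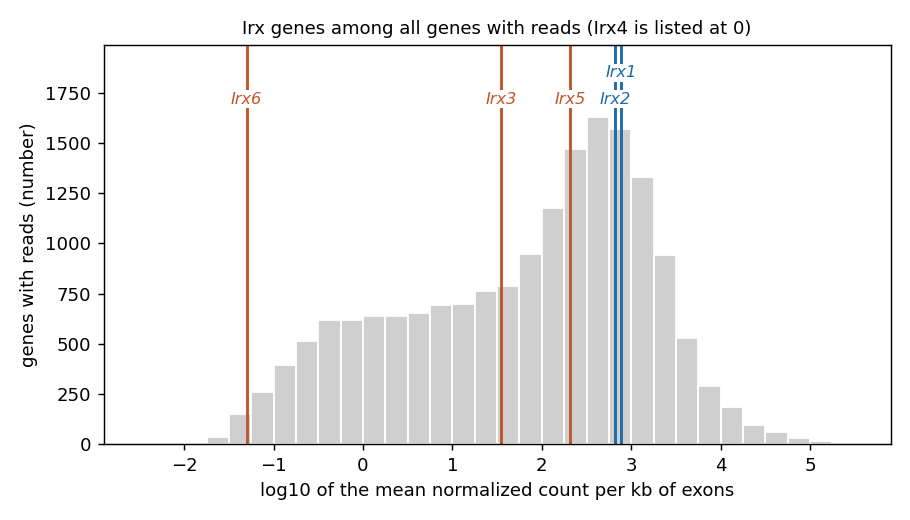
Number of genes with reads (vertical axis) by log10 of the authors' mean normalized count per kb of exons (horizontal axis), in bins over 17737 genes. Lines mark the Irx genes, blue for chromosome 13 and orange for chromosome 8: Irx1 (774 per kb), Irx2 (656) and Irx5 (209) lie to the right of the median of 129, Irx3 (35.2) and Irx6 (0.0501) to its left, and Irx4 is listed at 0.

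Of the summed means of the 6 genes, Irx1 held 44.1%, Irx2 41.3%, Irx5 12.3%, Irx3 2.32% and Irx6 0.00405%. The cluster on chromosome 13 held 85.4% of the sum, both for the means and for the levels per kb. Each cluster thus combined expressed members with 1 member at or near 0. In both clusters that member was the one at the end with the highest coordinates, Irx4 on chromosome 13 and Irx6 on chromosome 8.

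The 6 genes share a nearly identical stretch of coding sequence in the homeobox, which bears on how reads can be assigned to them. The stretch spans 120 bases, and it lies at coding positions 451 to 570 in Irx1, 415 to 534 in Irx2, 460 to 579 in Irx3, 499 to 618 in Irx4, 406 to 525 in Irx5 and 499 to 618 in Irx6. The sequences are those of the GENCODE transcripts on GRCm38, written 5′ to 3′. Capitals mark the positions at which the 6 genes are not all the same.
Irx1: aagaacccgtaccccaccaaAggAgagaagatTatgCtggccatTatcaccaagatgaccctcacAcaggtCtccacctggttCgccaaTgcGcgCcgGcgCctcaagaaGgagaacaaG
Irx2: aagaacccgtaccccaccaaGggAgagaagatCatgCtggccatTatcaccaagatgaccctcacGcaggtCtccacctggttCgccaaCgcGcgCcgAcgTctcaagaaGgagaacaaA
Irx3: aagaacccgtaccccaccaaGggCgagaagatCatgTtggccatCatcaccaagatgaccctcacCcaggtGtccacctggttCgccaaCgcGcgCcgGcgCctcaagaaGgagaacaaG
Irx4: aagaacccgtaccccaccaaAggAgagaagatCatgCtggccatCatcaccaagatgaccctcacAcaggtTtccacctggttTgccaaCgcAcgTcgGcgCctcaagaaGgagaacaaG
Irx5: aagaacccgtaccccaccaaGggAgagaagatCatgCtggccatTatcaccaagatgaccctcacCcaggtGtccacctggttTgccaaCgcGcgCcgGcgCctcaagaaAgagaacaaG
Irx6: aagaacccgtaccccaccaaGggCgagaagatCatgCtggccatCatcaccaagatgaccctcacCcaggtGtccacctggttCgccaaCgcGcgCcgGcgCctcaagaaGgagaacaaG

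Of the 120 bases, 105 were the same in all 6 genes and 15 differed. The differences fell in 15 of 40 codons, 14 at the third codon position, 1 at the first and 0 at the second, and in 0 codons did they change the amino acid. Identity within the stretch ran from 91.7% between Irx2 and Irx4 to 99.2% between Irx3 and Irx6. The longest run of bases shared exactly by any pair of whole transcripts was 88 bases, between Irx3 and Irx6. The next were 65 bases between Irx2 and Irx5 and 50 bases between Irx3 and Irx5, and the shortest of the longest runs was 23 bases. All of these runs are shorter than the reads of 150 bases, so a read of full length cannot lie wholly inside one. Irx6, the gene with the longest run in common with Irx3, had 1 read beside the 603 of Irx3.

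On the mm10 build, Irx3 lies on chromosome 8 at chr8:91798511-91801654 on the minus strand, Irx5 at chr8:92357796-92361456 and Irx6 at chr8:92674289-92680956, both on the plus strand. Irx3 has 4 exons, Irx5 has 3 and Irx6 has 6. This cluster spans 882 kb, with 556 kb between Irx3 and Irx5 and 313 kb between Irx5 and Irx6. On chromosome 13, Irx1 lies at chr13:71958232-71963723 on the minus strand with 4 exons. Irx2 follows at chr13:72624430-72634196 with 5 exons and Irx4 at chr13:73259589-73269622 with 6 exons, both on the plus strand. This cluster spans 1311 kb, with 661 kb between Irx1 and Irx2 and 625 kb between Irx2 and Irx4. The gene positions are those of RefSeq on GRCm38.p6, and the exon counts those of GENCODE on the same build.

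Within 1 Mb of an Irx gene the table held 20 other genes on chromosome 8 and 23 on chromosome 13. Of these, 10 and 16 had a mean of at least 10, and 6 and 4 were listed at 0. On the side beyond Irx6, 4 of 13 genes had a mean of at least 10 and 5 were listed at 0. On the side beyond Irx4, 15 of 19 genes had such a mean and 1 was listed at 0. Over all 25043 genes in the table, 56.9% had a mean of at least 10 and 5768 were listed at 0. Inside the chromosome 8 cluster the only other gene in the table was Crnde, a long noncoding RNA gene transcribed away from Irx5 and 1.68 kb from it. Its mean was 255, or 206 per kb, beside 209 per kb for Irx5. Inside the chromosome 13 cluster the table held 3 long noncoding RNA genes. Gm20554, on the strand opposite to Irx2, had a mean of 156, and its RefSeq span overlaps that of Irx2. D730050B12Rik and 4930555K05Rik were listed at 0. The libraries were made with a kit that keeps strand, but the study names default settings for the counting, and the default of featureCounts does not use strand. With that default, reads of Gm20554 and Irx2 in the overlap cannot be told apart by strand. Whether the 1 listed transcript of Irx2 reaches into the overlap was not examined.

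The nearest protein-coding genes outside the clusters had higher levels per kb than the Irx gene beside them. Fto, an RNA demethylase gene whose introns hold known enhancers of Irx3, lies 130.1 kb from Irx3 and had a mean of 3143, or 882 per kb. Mmp2, a matrix protease gene of fibroblasts, lies 146 kb from Irx6 and had a mean of 6271, or 2037 per kb. Ndufs6, a subunit gene of respiratory complex I, lies 50.3 kb from Irx4 and had a mean of 2269, or 4248 per kb. On the other side of that cluster the nearest gene in the table was Mir466f-4, 851 kb from Irx1 and listed at 0.

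**Figure D2:**
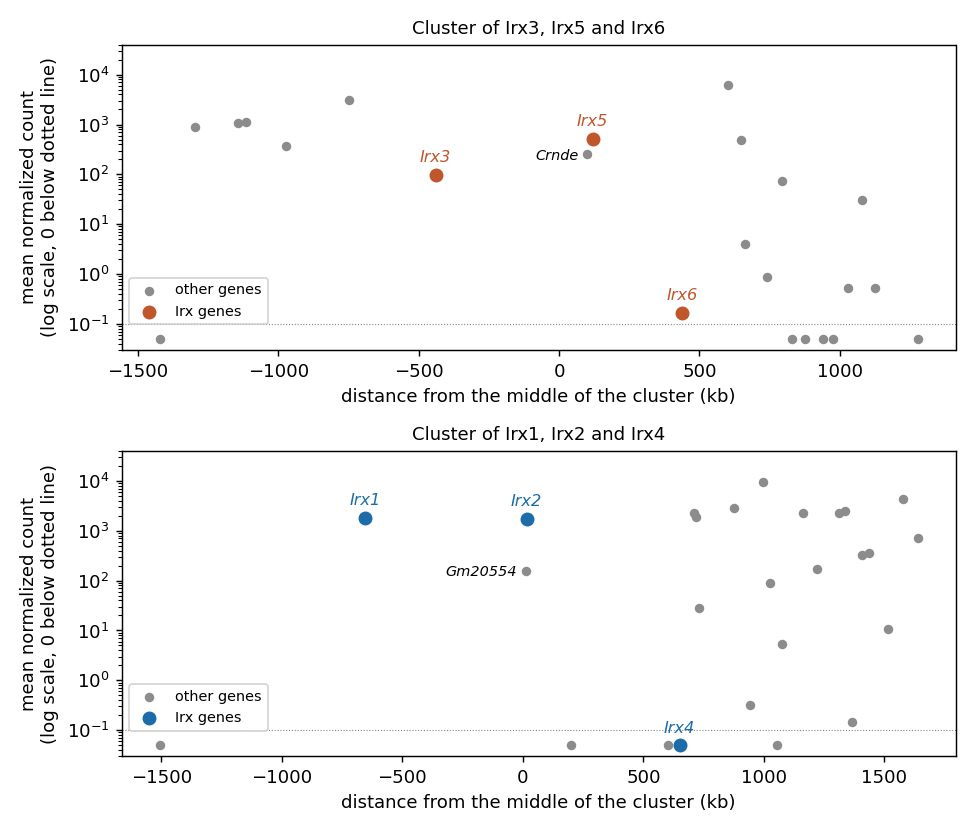
Mean normalized count (vertical axis, log scale, with genes at 0 drawn below the dotted line) of genes within 1 Mb of an Irx gene, by distance in kb from the middle of the cluster (horizontal axis), for the chromosome 8 cluster (top) and the chromosome 13 cluster (bottom). The nearest gene beyond Irx6 (0.169) is Mmp2 (6271), the highest of the 13 genes on that side, whose median is 0.529. The nearest beyond Irx4 (0) is Ndufs6 (2269), and the 19 genes on that side have a median of 361.

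RefSeq promoter windows, from 250 bases before to 50 bases after a transcript start, were at hand for 3 of the 6 genes: Irx2, Irx3 and Irx4. Those of Irx2 and Irx4 are shown because these genes share a cluster and are the highest and the lowest of the 3 genes with a window, 656 per kb against 0. Each sequence covers the bases from 250 to 21 before the start on GRCm38.p6, plus strand, at chr13:72628570-72628799 for Irx2 and chr13:73260247-73260476 for Irx4. Both lie inside the RefSeq span of their gene, which also covers transcripts that start further upstream. Capitals mark matches to GGGCGG (SP1 box) and CCAAT (NF-Y box) on the strand shown.
Irx2: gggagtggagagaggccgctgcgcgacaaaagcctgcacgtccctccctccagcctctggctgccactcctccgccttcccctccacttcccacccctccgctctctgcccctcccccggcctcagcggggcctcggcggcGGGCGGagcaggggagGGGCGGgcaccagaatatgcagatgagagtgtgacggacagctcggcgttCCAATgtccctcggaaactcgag
Irx4: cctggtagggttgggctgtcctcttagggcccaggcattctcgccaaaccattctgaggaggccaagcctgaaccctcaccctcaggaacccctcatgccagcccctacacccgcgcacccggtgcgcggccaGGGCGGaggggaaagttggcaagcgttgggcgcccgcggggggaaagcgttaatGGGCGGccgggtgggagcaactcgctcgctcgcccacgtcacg

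Both windows were rich in CpG. The 300-base windows held 25 CpG in Irx2 and 31 in Irx4, at percentiles 81.6 and 89.4 of 32817 promoters with a median of 7, and their GC contents were 69.0% and 70.7%. That of Irx3 held 14 CpG, at percentile 63.7, with a GC content of 56.0%. GGGCGG, searched on both strands, had 2 matches in Irx2, 0 in Irx3 and 2 in Irx4, and 35.6% of all promoters held it. CCAAT had 1 match in Irx2 and 0 in Irx3 and Irx4, and 37.4% of all promoters held it. TATAAA (13.6% of all promoters) and ACANNTGT (7.38%) had 0 matches in the 3 windows. A match is a run of letters and not a site shown to be bound. The window of Irx4, a gene with no reads, held 31 CpG, 2 GGGCGG and 0 CCAAT, beside 25, 2 and 1 in that of Irx2. Whether any of these counts bears on the levels of the genes was not tested.

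Among the other TALE genes, which include cofactors of Hox and Iroquois proteins, all 12 of 12 had a mean of at least 10, beside 56.9% of all genes in the table. Their median was 304 per kb over the 11 with a known length, beside 129 for all genes with reads. Meis2 had no matched length and a mean of 460.0. Only Tgif1, a corepressor of TGF-beta signaling, exceeded Irx1, at 2881 per kb. Pbx2, a partner of Hox proteins, was lower than Irx2, at 520.0 per kb. The lowest TALE gene outside the Irx family was Meis1 at 56.3 per kb, so on the pooled means 0 of the 11 were as low as Irx3. On the split of its reads, Irx3 was at 53.3 to 63.0 per kb in its 3 high libraries, beside the pooled 56.3 of Meis1. The other TALE genes were not split by library, so their levels in those libraries are not known. The place of Irx3 among them there was not examined. By pooled level per kb, Irx3, Irx6 and Irx4 were the 3 lowest of the 17 TALE genes with a length.

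**Figure D3:**
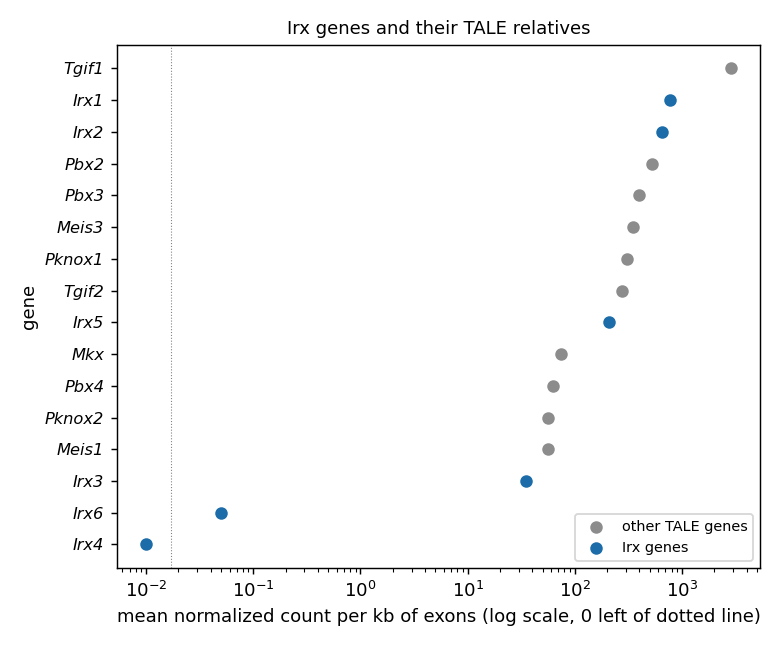
Mean normalized count per kb of exons (horizontal axis, log scale, with 0 drawn left of the dotted line) of the Irx genes (blue) and of 10 other TALE genes (gray), ordered by level. Irx1 and Irx2 lie just below Tgif1 at the top, Irx5 (209) lies in the middle, and Irx3, Irx6 and Irx4 are the 3 lowest.

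Over all 25043 genes in the table, 19275 had reads and 56.9% had a mean of at least 10, which is the share to set beside the counts below. Of 25 genes of the early limb bud, where Irx3 and Irx5 act, 23 had reads and 20 had a mean of at least 10. Their median was 87.0 per kb, at percentile 46.0 and below the 129 of all genes with reads. Irx1, Irx2 and Irx5 were above this median and Irx3 was below it. The highest were the Hedgehog transducer Smo (2448 per kb), the posterior and distal limb gene Hoxd13 (1945) and the mesenchymal homeobox gene Prrx1 (983), and these 3 were the only ones of the list above Irx1. Shh, the ligand of that pathway, and Sall4 were listed at 0, and 8 of the 25 genes were below Irx3. Heart muscle genes, listed because Irx4 and Irx3 are known from the heart, were lower. Of 12 such genes 5 had a mean of at least 10, their median was 6.05 per kb, and the highest were Tnnt2 (321), Hey2 (68.7) and Nppa (18.9). Of these 12 genes, 10 were below Irx3. Fat cell genes, listed because Irx3 and Irx5 act in fat precursors, had a median of 46.0 per kb, and 9 of 12 had a mean of at least 10. The transcription factor Cebpb (1674 per kb), the fatty acid carrier Fabp4 (1395) and the nuclear receptor Pparg (669.7) were the highest of them.

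The mean of Irx3 was low enough to be split into the reads of each library. Each mean is a sum of whole reads divided by 6 size factors, and the table gives 15 significant digits. On this basis only 1 set of 6 whole numbers gave the mean of Irx3 within its rounding. With a 10 times wider tolerance 4 sets were accepted. With size factors taken from transcripts with 2 reads, and a tolerance that was also widened, 3 sets were accepted. The reads in those other sets were not examined, and all library values of Irx3 given here are those of the 1 set. The libraries are numbered by falling size factor, from 1.13 to 0.909, and the column of means ties no number to a genotype. The authors' comparison columns were not used to assign one, so the values are given without groups. Irx3 had 184 reads in library 1, 154 in library 2, 36 in library 3, 171 in library 4, 26 in library 5 and 32 in library 6. Divided by the size factors these were normalized counts of 163, 146, 35, 173, 27.8 and 35.2. The lowest was 27.8, the median 90.8 and the highest 173, which is 6.23 times the lowest. Libraries 1, 2 and 4 were the high ones, and their counting intervals, which together ran from 124 to 201, did not overlap those of libraries 3, 5 and 6, which together ran from 18.2 to 49.7. The single read of Irx6 was in library 4. The means of Irx1, Irx2 and Irx5 were higher, and no split of them was made.

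**Figure D4:**
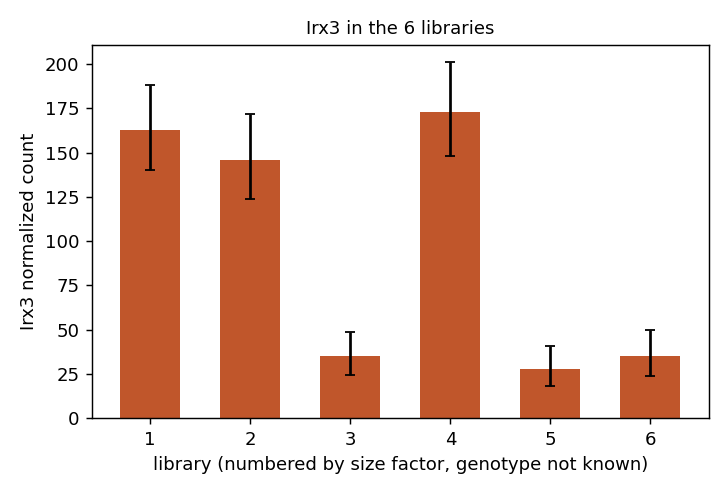
Normalized count of Irx3 (vertical axis, from 0) in each of the 6 libraries (horizontal axis), which are numbered by size factor and whose genotype is not known. Bars are the value of 1 library, from the 1 set of reads accepted within the rounding of the mean, and error bars its 95% counting interval. The values run from 27.8 in library 5 to 173 in library 4.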

How the data were processed

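RNA-seq libraries of 3 WT and 3 Anp32e null MEF samples were made by the authors with a stranded total RNA kit and sequenced as paired reads of 150 bases. Alignment (RNA-STAR 2.7.3a, mm10), counting (featureCounts of Subread) and normalization (DESeq2 1.26.0) were done by the authors, the latter steps with default settings. The sources used here give no version of featureCounts and do not say whether reads were counted per transcript or per gene. The deposited table lists 42361 transcripts. Its signal column, the only one used, is the authors' mean over the 6 libraries of counts divided by size factors. Another 5 columns hold the authors' own comparison of the genotypes (log2 fold change, its error, statistic and p-values) and were not used, and 0 columns hold values of single libraries. Total counts per library are therefore not known.

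RefSeq (GRCm38.p6) placed 42203 transcripts in genes and left 158 without one. Exon lengths of GENCODE M21 transcripts were matched for 92.7% of genes. Percentiles are among genes with reads. For the splitting of means, the 6 size factors were fitted to 3605 low means, and a set of reads was accepted if it gave the listed mean within its rounding. On simulated means between 90 and 97, 19 of 20 were split in 1 way and all 19 rightly. Intervals are exact Poisson at 95%, and a count of 0 was given a limit of 3 reads. No test was run, because no value is tied to a genotype. Python 3.11.15, numpy 2.4.6, pandas 2.3.3 and scipy 1.17.1 were used.

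The members and gene lists were chosen with earlier results of these data known. Named genes were the 6 Irx genes, the nearest genes on each side of and inside the clusters, the 3 highest per kb of each list, Anp32e, and the 2 genes most like Irx3 over the libraries by Pearson's r of log2(normalized count + 1). Pdgfra, Dcn, Lum, Shh, Sall4, Myod1, Myf5, Meis1 and Meis2 were named after their values were seen. Of the genes this rule names, 2 are not reported here. Alternatives were other transcripts, lengths, rankings, tolerances, libraries left out, pseudocounts and motif strands.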

Additional observations from a re-analysis of the deposited data

How the results depend on the processing

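Using the sum of a gene's distinct transcript means, or the lowest of them, changed no level. It could not, because each of the 6 genes had 1 distinct mean. Coding length in place of exon length gave 1275 per kb for Irx1, 1211 for Irx2, 63.6 for Irx3 and 352 for Irx5, in the same order, and the longest transcript gave 201 per kb for Irx5. Among genes with a mean of at least 10, the percentiles were 63.1 for Irx1, 61.5 for Irx2, 18.8 for Irx3 and 37.3 for Irx5, while Irx4 and Irx6 fell outside that ranking. Leaving out each library in turn moved the mean of Irx3 between 81.4 and 111 and that of Irx6 between 0 and 0.203, the value of 0 being without library 4. The split of Irx3 depends on the precision, and 4 sets of reads were accepted with a 10 times wider tolerance. With size factors taken from transcripts with 2 reads, 3 sets were accepted, but the tolerance was also widened there, so the effects of these changes are not separated. The skeletal muscle median was 1629 per kb over the genes with reads only. On the gene's strand alone, 23.4% of promoters held GGGCGG, 21.1% held CCAAT and 8.32% held TATAAA. No paired analysis was possible because the result comes from no test. The pooled mean limits what can be said: it has no error between replicates, and differences between WT and Anp32e null MEFs were not analysed here.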

Other observations

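In the 1 set of reads accepted within the rounding of the mean, the Irx3 values of the 6 unlabelled libraries fell into separate clusters. Libraries 1, 2 and 4 had normalized counts of 163, 146 and 173, and libraries 3, 5 and 6 had 35, 27.8 and 35.2. The gap between 35.2 and 146, a 4.16-fold difference, held no library. The genotype of these libraries is not known, and no test was run between them.

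Among 1631 genes with a mean between 10 and 40, whose reads were split in the same way, Tmem178 was most like Irx3 over the 6 libraries. Tmem178, which encodes a transmembrane protein, had a Pearson's r of 0.997, with normalized counts of 68.1, 47.6, 8.76, 70.9, 6.41 and 7.70 in libraries 1 to 6. Spearman's rho was 0.943. The points come from the same 6 libraries and share their size factors, and with values in separate clusters r rests on the gap between them. Every r also rests on the 1 set of reads used for Irx3. Of the 1631 genes, 119 (7.30%) had an r above 0.9 with Irx3 and 127 an r below -0.9.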
